A study of Mus musculus with 9 samples.

Results

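The genes examined here are 10 genes of astrocytes, grouped as homeostatic transport and junction genes. They encode a water channel, amino acid transporters, enzymes, connexins, a transcription factor and a growth factor receptor. The rule is a list of gene names. These are Aqp4, Slc1a2, Slc1a3, Slc7a10, Glul, Aldh1l1, Gja1, Gjb6, Sox9 and Fgfr3, which make up 10 of the 52550 genes in the count table. All 10 passed the filter on low counts and are among the 18699 genes tested. RNA came from the spinal cord of 9 adult female C57BL/6N mice, 3 in each of 3 groups, on day 7. Sham mice had the lamina removed and no contusion, SCI mice had a contusion of the thoracic cord and received the vehicle DMSO, and SCI+FIPI mice had the same contusion and received FIPI, an inhibitor of phospholipase D. Each library was made from a piece of tissue around the lesion that holds all cell types, so that fewer cells of a type and less RNA per cell cannot be told apart. The sources used here do not say whether mice of a group were operated on together, and the p-values measure the spread between these 9 mice.

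Astrocytes are the glia that surround synapses and blood vessels. Around synapses they take up glutamate through 2 transporters, GLT-1 (Slc1a2) and GLAST (Slc1a3), and glutamine synthetase (Glul) turns it into glutamine, which returns to neurons. At vessels, their endfeet carry the water channel aquaporin-4 (Aqp4). Gap junctions of connexin 43 (Gja1) and connexin 30 (Gjb6) join the cells into a network. After an injury, astrocytes near the lesion enlarge and make more of the filament protein GFAP.

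Total counts per mouse were between 20806000 and 24582377. Levels of a gene are given in CPM, its share of the counts of a mouse after scaling by TMM factors. Levels of different genes are compared in FPKM, the share of the total counts of a mouse per kilobase of exonic length, without TMM factors. Genes were called where the log2 fold change reached 0.5 in either direction and the p-value of the quasi-likelihood test in edgeR, after Benjamini-Hochberg adjustment over the 18699 genes, was under 0.05. Astrocyte transcripts were present in every mouse. The lowest value of any of the 10 genes in the 9 mice was 44.0 CPM, and Gfap was between 3913 and 4453 CPM in Sham mice.

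In the Sham cord, the genes covered a wide span of levels. Glul was highest with 585.5 ± 54.6 FPKM (mean ± SD, n = 3), followed by Slc1a2 with 179.7 ± 2.40 FPKM and Aqp4 with 140.5 ± 4.63 FPKM. Each of these stood apart from the next in every Sham mouse. Slc7a10 came next with 51.2 ± 2.86 FPKM. Below it, Gja1 (41.1 ± 3.32 FPKM), Gjb6 (36.3 ± 2.71 FPKM) and Fgfr3 (33.5 ± 1.82 FPKM) overlapped with their neighbours in this order. Aldh1l1, Slc1a3 and Sox9 formed the lowest group with means between 13.2 and 15.7 FPKM, and they too overlapped with their neighbours. The order differed after injury. In both SCI and SCI+FIPI mice, Aqp4 was above Slc1a2, with 208.7 ± 22.8 against 100.1 ± 9.13 FPKM in the SCI group and 208.3 ± 14.8 against 119.6 ± 4.60 FPKM in the SCI+FIPI group, and the mice did not overlap. Slc7a10 moved from above Gja1 and Gjb6 to below Gja1 and into the range of Gjb6 (24.7 ± 3.58 against 26.0 ± 3.53 FPKM in the SCI group). Sox9 had a lower mean than Slc1a3 in Sham mice and a higher one in both injured groups, without overlap in the SCI+FIPI group (19.4 ± 0.801 against 15.4 ± 0.316 FPKM). The mean of Aldh1l1 was just above that of Fgfr3 in the SCI group, where their mice overlapped.

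**Figure D1:**
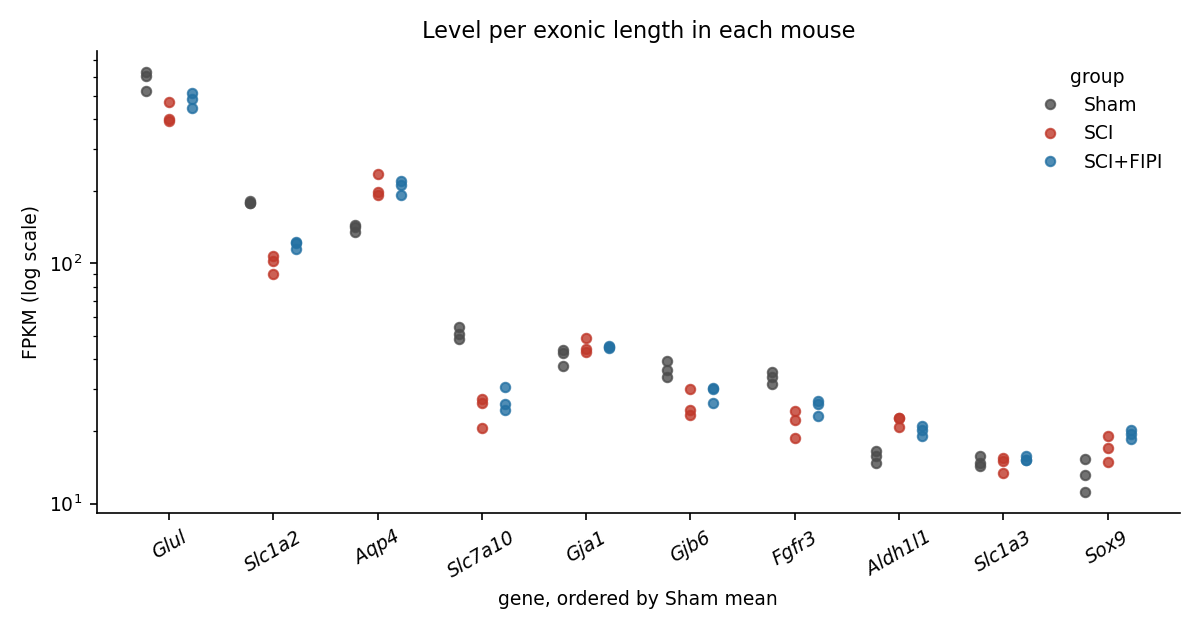
Level of each of the 10 genes in FPKM on a log axis, with a point for each of the 3 mice of a group and genes ordered by their Sham mean. Aqp4 lies below Slc1a2 in Sham mice (140.5 against 179.7 FPKM) and above it in SCI mice (208.7 against 100.1 FPKM).

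The first comparison asked how injury changed these genes. The genes went in both directions. Aqp4 and Aldh1l1 rose 1.52-fold and 1.44-fold in injured mice with vehicle against Sham mice, while Slc7a10, Slc1a2 and Fgfr3 fell to 0.492, 0.568 and 0.662 of the Sham level. Thus 5 of 10 genes were called, 2 higher and 3 lower, against 47.0% of all genes tested, so that the share called was close to the background of this tissue. With the adjusted p alone, 9 of 10 passed, against 65.9% of all genes, of which Gja1 only just did. In 8 of 10 genes the mice of the groups did not overlap, against 70.5% of all genes. The median log2 fold change of the 10 genes was -0.23, beside -0.00 for all genes tested.

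**Figure D2:**
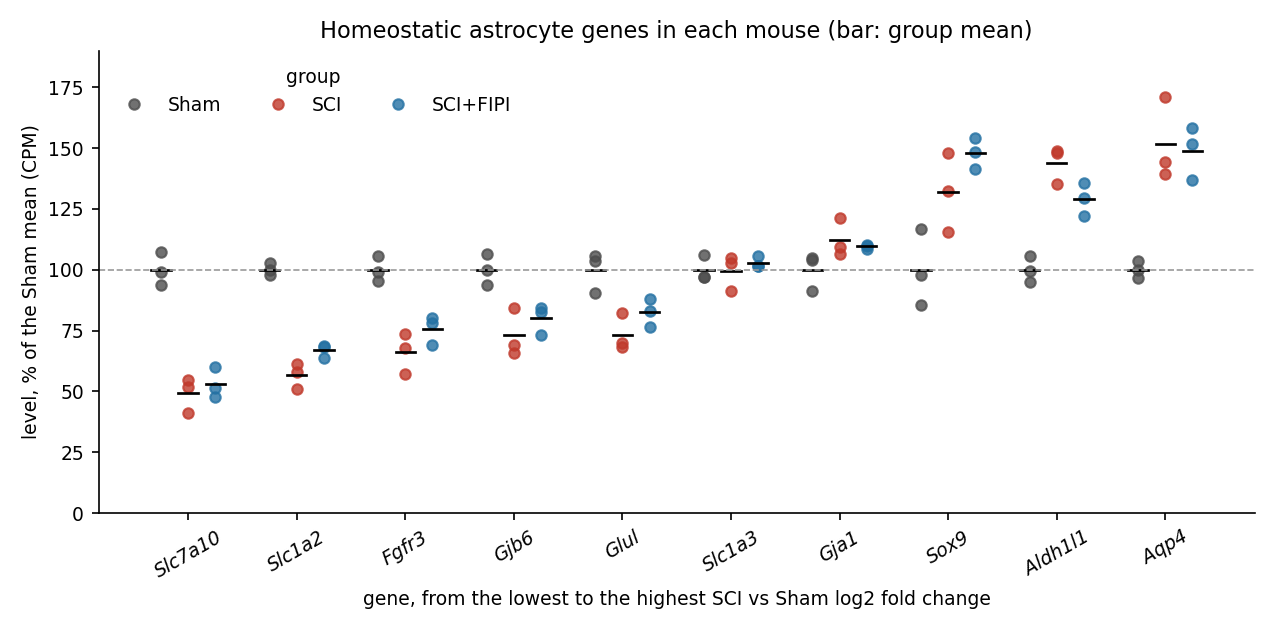
Level of each of the 10 genes in every mouse as a percentage of the Sham mean, with a bar at the mean of each group of 3 mice and a dashed line at 100%. The mean of Slc7a10 is 49.2% in the SCI group and 53.0% in the SCI+FIPI group, that of Aqp4 is 151.6% and 148.9%, and the points of Slc1a3 overlap between all groups.

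Aqp4 forms the channel through which water crosses the astrocyte membrane. Its level was 840.3, 867 and 901 CPM in the Sham mice, and 1254, 1488 and 1213 CPM in the SCI mice. Every SCI mouse was above every Sham mouse, and mouse 2 was the highest of its group. The log2 fold change was 0.60 (SE 0.0842), with an adjusted p-value of 1.65e-05 in edgeR.

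Slc1a2, at chr2:102658659-102790784 of GRCm38, encodes the transporter that removes most glutamate from the extracellular space of the adult brain. It was at 2336, 2289 and 2404 CPM in the Sham mice and at 1359, 1439 and 1196 CPM in the SCI mice. The groups lay far apart, with SCI mouse 3 the lowest. It fell by 0.82 on the log2 scale (SE 0.0759, edgeR adjusted p = 2.27e-07). Slc1a3, at chr15:8634124-8710764, does the same work and is the main glutamate transporter of radial glia and the cerebellum. Its level was 134.7, 123 and 123 CPM in the Sham mice and 133, 131 and 116 CPM in the SCI mice. These ranges overlapped, and no difference was detected. The log2 fold change was -0.00 with a 95% confidence interval from -0.14 to 0.13 and an edgeR adjusted p of 0.954, an interval that leaves out the fold limit in both directions.

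Slc7a10, at chr7:35186385-35201114, encodes Asc-1, which exchanges small neutral amino acids such as serine and glycine. It had the deepest fall of the 10 genes. Sham mice had 106.5, 100.5 and 115 CPM, and SCI mice had 55.8, 58.6 and 44.0 CPM. All SCI mice were below all Sham mice, and mouse 3 was again the lowest. The log2 fold change was -1.02 (SE 0.111, edgeR adjusted p = 7.01e-06). Its exons share 377 bases with Lrp3 on the opposite strand, and Lrp3 was itself between 79.3 and 99.8 CPM in Sham mice and between 49.9 and 55.2 CPM in SCI mice. The strand setting of the counting is not given in the sources used here, and the part of Lrp3 reads in the Slc7a10 values was not tested.

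Of the enzymes, Aldh1l1, at chr6:90486427-90600203, takes part in folate metabolism and is widely used to mark astrocytes. It was at 74.5, 70.0 and 66.8 CPM in the Sham mice and at 95.2, 104.6 and 104.0 CPM in the SCI mice. The groups did not overlap, and the gene rose by a log2 fold change of 0.53 (SE 0.0642, edgeR adjusted p = 4.02e-06), just past the fold limit. Without Sham mouse 3, with upper-quartile factors, and with offsets for GC content and length, the log2 fold change was 0.49, 0.46 and 0.23, and the call was lost. Glul, at chr1:153899944-153909723, encodes glutamine synthetase. Its level was 2001, 2043 and 1748 CPM in the Sham mice and 1584, 1347 and 1314 CPM in the SCI mice. The SCI mice were lower without overlap, and the log2 fold change of -0.45 (SE 0.0888, edgeR adjusted p = 0.000415) stayed inside the fold limit. It passed the limit without Sham mouse 3 (-0.52) and without SCI mouse 1 (-0.54). Of its 50-base stretches, 14.2% also occur in other genes, of which the copy Glns-ps1 had at most 1.67 CPM.

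The connexins did not move together. Gja1, at chr10:56377330-56402513, encodes the more abundant of the astrocyte connexins, and was at 382, 438.5 and 436 CPM in the Sham mice and at 458.5, 508 and 445.5 CPM in the SCI mice. The difference was small (log2 0.17, SE 0.0707, edgeR adjusted p = 0.0486), and the lowest SCI mouse was only just above the highest Sham mouse. The adjusted p of Gja1 was not under 0.05 in 9 of 20 alternatives. Without Sham mouse 1 and without SCI mouse 2 the log2 fold change was 0.11 (edgeR adjusted p = 0.239 and 0.214), and with offsets for GC content and length it was 0.33. Fibroblasts and meningeal cells also make connexin 43, and the summed level of 5 fibroblast and meningeal markers was between 287 and 690.2 CPM in Sham mice and between 6748 and 9393 CPM in SCI mice, with none of the 5 at 0. In SCI mice Col1a1 and Col1a2 made up most of this sum, with means of 4810.8 and 2883.5 CPM. The part of fibroblasts and meningeal cells in the Gja1 level was not tested. Gjb6, at chr14:57123303-57133611, was at 90.0, 102.4 and 96.2 CPM in the Sham mice and at 81.2, 66.6 and 63.5 CPM in the SCI mice. The SCI mice were lower without overlap, by a log2 fold change of -0.45 (SE 0.0904, edgeR adjusted p = 0.000601), inside the fold limit. Without SCI mouse 1, the highest of its group, the value was -0.57 and passed the limit.

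Sox9, at chr11:112782224-112787760, is a transcription factor that drives glial fate and stays on in adult astrocytes. Sham mice had 63.1, 53.0 and 46.3 CPM, and SCI mice had 80.1, 62.6 and 71.6 CPM. SCI mouse 2 lay below Sham mouse 1, and the log2 fold change was 0.40 (SE 0.112, edgeR adjusted p = 0.00784), inside the fold limit. Without Sham mouse 1 it was 0.52 and passed the limit, and with offsets for GC content and length it was 0.25 (edgeR adjusted p = 0.0822). Ependymal cells also make Sox9, and the summed level of 5 ependymal markers was between 56.4 and 71.4 CPM in Sham mice and between 64.3 and 66.7 CPM in SCI mice. Foxj1 made up most of this sum, with means of 49.9 CPM in Sham mice and 54.0 CPM in SCI mice. The part of ependymal cells in the Sox9 level was not tested. Fgfr3, at chr5:33721674-33737068, is the fibroblast growth factor receptor typical of astrocytes. It was at 251, 236 and 227 CPM in the Sham mice and at 175.5, 161 and 136 CPM in the SCI mice. Every SCI mouse was below every Sham mouse, and the gene fell by 0.59 on the log2 scale (SE 0.088, edgeR adjusted p = 3.7e-05). Without SCI mouse 3 the value was -0.49, and the call was lost.

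**Figure D3:**
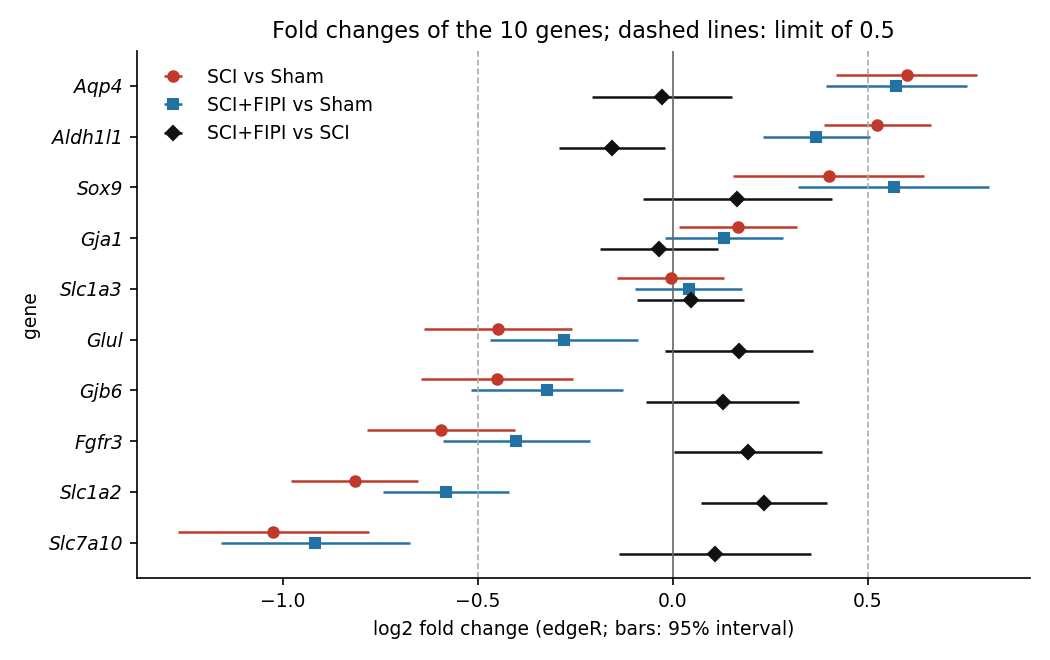
Log2 fold change of each of the 10 genes in the 3 comparisons, with 95% confidence intervals from the edgeR fit to 9 mice and dashed lines at the fold limit of 0.5 in either direction. SCI against Sham spans -1.02 (Slc7a10) to 0.60 (Aqp4), while in SCI+FIPI against SCI no estimate reaches 0.5 in either direction.

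Some mice were low in many of the genes. SCI mouse 3 was the lowest SCI mouse in 8 of 10 genes and the highest in 0. SCI+FIPI mouse 3 was the lowest of its group in 6 and the highest in 0. Sham mouse 3 was the lowest of its group in 5 and the highest in 3. The same count over all genes was not made. The summed level of 10 neuron markers was 1896, 1699 and 1398 CPM in SCI mice 1 to 3, against 4660 to 5106 CPM in Sham mice. That of 8 microglia and macrophage markers was 5930.3, 5708 and 6895 CPM, against 387 to 529 CPM in Sham mice. In SCI mice Lyz2 made up most of this sum, with a mean of 4528.6 CPM. SCI mouse 3 thus had the lowest neuron and the highest macrophage sum of its group, and the part of this in the levels of the 10 genes was not tested. Of these marker lists, 10 of 10 neuron genes fell after injury and 7 of 8 microglia and macrophage genes rose, as did 5 of 5 fibroblast and meningeal genes, 3 of 4 oligodendrocyte precursor genes and 3 of 5 endothelial genes. Of the oligodendrocyte markers, 4 of 7 fell, and of the ependymal markers 1 of 5. No Schwann cell marker of 3 tested and no erythrocyte marker of 5 was called. These counts are to be read beside the 47.0% of all genes called in this comparison. Those of the endothelial and oligodendrocyte lists were near that share. Flt1 of the endothelial list was below 0 and not called (log2 -0.29, edgeR adjusted p = 0.000829). In the oligodendrocyte list 1 of 7 estimates was above 0.

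A RefSeq start site each of 3 genes that fell and of Aldh1l1, which rose, is shown because these genes changed in opposite directions in the same tissue. The sequences are from RefSeq on GRCm38.p6 and run, in the direction of the gene, from 250 bases before the start site to 50 bases after it. Slc1a2 is chr2:102706188-102706487 (plus strand), Slc7a10 is chr7:35186135-35186434 (plus), Fgfr3 is chr5:33721474-33721773 (plus, the first of 2 start sites) and Aldh1l1 is chr6:90550543-90550842 (plus). The start sites of Slc7a10 and Fgfr3 lie at or near the 5' end of the gene in GENCODE M21. Those of Slc1a2 and Aldh1l1 lie 47.8 and 64.4 kb inside the gene as annotated there, so that upstream starts of these genes are not covered. Capitals mark matches on either strand to the motifs searched, of which the CCAAT box and the GC box (GGGCGG) occur in these 4.
Slc1a2: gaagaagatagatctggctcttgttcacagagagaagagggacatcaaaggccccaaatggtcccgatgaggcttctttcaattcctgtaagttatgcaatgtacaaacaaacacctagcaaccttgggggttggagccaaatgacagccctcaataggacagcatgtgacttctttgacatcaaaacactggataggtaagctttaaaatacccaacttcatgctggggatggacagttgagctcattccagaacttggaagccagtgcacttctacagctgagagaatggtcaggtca
Slc7a10: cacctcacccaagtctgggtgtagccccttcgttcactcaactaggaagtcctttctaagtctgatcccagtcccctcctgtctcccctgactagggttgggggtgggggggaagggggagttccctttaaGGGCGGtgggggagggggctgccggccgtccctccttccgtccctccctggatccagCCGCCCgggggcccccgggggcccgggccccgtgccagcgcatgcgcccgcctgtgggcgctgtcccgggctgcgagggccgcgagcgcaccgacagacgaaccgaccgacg
Fgfr3: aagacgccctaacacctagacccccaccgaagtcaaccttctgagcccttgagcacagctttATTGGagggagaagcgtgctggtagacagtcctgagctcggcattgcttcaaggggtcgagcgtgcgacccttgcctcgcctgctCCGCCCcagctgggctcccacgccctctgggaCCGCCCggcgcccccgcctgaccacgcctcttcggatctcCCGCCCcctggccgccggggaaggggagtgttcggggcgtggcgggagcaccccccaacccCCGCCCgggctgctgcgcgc
Aldh1l1: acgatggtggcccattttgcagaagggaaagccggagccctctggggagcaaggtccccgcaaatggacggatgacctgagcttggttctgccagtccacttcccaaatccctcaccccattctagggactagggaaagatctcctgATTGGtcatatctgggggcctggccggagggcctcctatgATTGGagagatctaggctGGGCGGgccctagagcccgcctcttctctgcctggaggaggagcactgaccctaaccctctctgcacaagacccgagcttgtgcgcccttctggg

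The Slc1a2 stretch holds no match and has a GC content of 45.7%. The Slc7a10 stretch has a GC content of 70.7% and matches GGGCGG at 119 and 62 bases before the start site. Fgfr3, with a GC content of 69.7%, matches CCAAT once and GGGCGG at 4 places. Aldh1l1, with a GC content of 60.0%, matches CCAAT at 103 and 63 bases and GGGCGG at 45 bases before the start. The TATA box was searched as TATAAA and is in 13.6% of 32851 promoters of this length. The CCAAT box is in 37.4% of them, and the GC box, searched as GGGCGG, in 35.7%. The NFI motif, searched as TTGGCA, is in 14.1% and can overlap the CCAAT box on the other strand. The SOX motif, searched as ACAATG, is in 12.6%. The AP-1 motif, searched as TGANTCA, is in 7.81%. The STAT motif, searched as TTCNNNGAA, is in 8.30%, and the CRE motif, searched as TGACGTCA, is in 1.79%. Sequences of 9 start sites of 8 of the 10 genes were used. The GC box was in 6 of the 9, the CCAAT box in 4, and the NFI, SOX and CRE motifs in 0. Of these stretches, that of Slc1a3 held the TATA box and the STAT motif, and that of Gja1 held the AP-1 motif. A match is a description of the letters and not a site that was measured, and falling and rising genes shared motifs here.

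In each of the 2 pairs with a like function, the ratio between the genes was higher after injury. The Slc1a3 to Slc1a2 ratio, from FPKM, was 0.0887, 0.0830 and 0.0787 in the Sham mice and 0.151, 0.140 and 0.149 in the SCI mice. Slc1a2 remained the more abundant transcript in every mouse. The ratio was 1.76-fold higher in the SCI group, a difference in the mean log2 ratio of 0.81, without overlap (exact two-sided permutation p = 0.1, the smallest that 3 mice against 3 can give). The Gja1 to Gjb6 ratio was 1.11, 1.12 and 1.18 in the Sham mice and 1.47, 1.99 and 1.83 in the SCI mice. It was 1.54-fold higher in the SCI group, by 0.63 on the log2 scale, again without overlap (exact two-sided permutation p = 0.1). These ratios are taken within a library and do not depend on its scaling. Leaving out each mouse in turn, the differences were between 0.77 and 0.86 for the transporters and between 0.53 and 0.75 for the connexins.

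**Figure D4:**
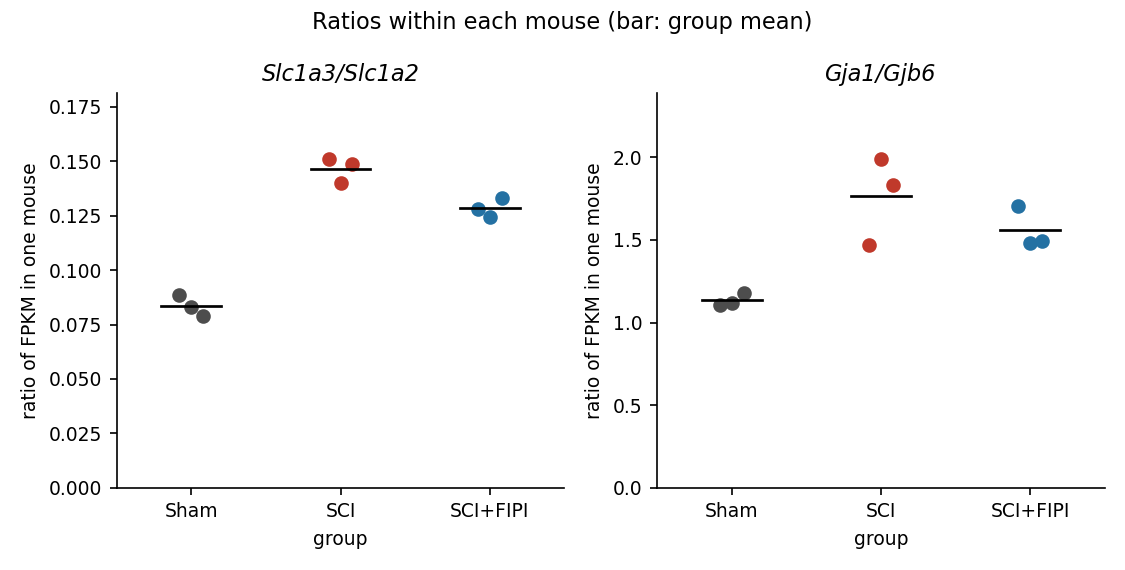
Ratio of Slc1a3 to Slc1a2 FPKM and of Gja1 to Gjb6 FPKM in each mouse, with a bar at the mean of each group (n = 3) and axes from 0. Both ratios are higher in all SCI mice than in all Sham mice, 1.76-fold and 1.54-fold on average, and the Slc1a3 to Slc1a2 ratio of the SCI+FIPI mice lies between the other groups.

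The second comparison asked whether FIPI changed these genes in the injured cord. None of the 10 was called in SCI+FIPI against SCI, where 3.06% of all genes were called. In edgeR, 3 of 10 had an unadjusted p under 0.05 (Slc1a2, Aldh1l1 and Fgfr3), against 25.2% of all genes, and 0 had an adjusted p under 0.05, and DESeq2 and limma-voom also called 0 of 10 at both limits. The estimates were small, 7 above 0 and 3 below, with a median log2 fold change of 0.12 beside -0.00 for all genes. This median was 0.03 without SCI mouse 3, 0.07 without SCI+FIPI mouse 2 and 0.20 without SCI mouse 1. Slc1a2 was the only gene of the 10 in which the mice of the 2 groups did not overlap, a pattern that 30.2% of all genes had. It was at 1610.2, 1596 and 1493 CPM in the SCI+FIPI mice, all above the SCI mice and all below the Sham mice. Its log2 fold change was 0.23 with a 95% confidence interval from 0.07 to 0.40 (edgeR adjusted p = 0.0641). The adjusted p was under 0.05 in 4 of 20 alternatives, DESeq2 and limma-voom among them, and over all 20 it was between 0.0167 and 0.221.

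Fgfr3 was at 186, 191 and 164 CPM in the SCI+FIPI mice, with a log2 fold change of 0.19 against the SCI group and a confidence interval from 0.01 to 0.38 (edgeR adjusted p = 0.187). Aldh1l1 was at 95.4, 86.0 and 91.3 CPM, with a log2 fold change of -0.16 and an interval from -0.29 to -0.02 (edgeR adjusted p = 0.138). In both, mice of the groups overlapped. Glul was at 1476, 1696 and 1606 CPM and Gjb6 at 70.3, 81.1 and 79.4 CPM, and in both the SCI+FIPI mice overlapped with the SCI mice and stayed below the Sham mice. Slc7a10 was at 55.1, 64.3 and 51.3 CPM, close to the SCI mice. Its interval, from -0.14 to 0.35, leaves out a return to the Sham level, which lay 1.02 above the SCI group on the log2 scale. Aqp4 was at 1375, 1319.6 and 1189.5 CPM, inside the range of the SCI mice apart from its lowest value, with an interval from -0.21 to 0.15. Gja1, at 460.4, 462 and 455 CPM, had an interval from -0.19 to 0.12, and Slc1a3, at 134, 129 and 129 CPM, had one from -0.09 to 0.18. For Sox9, at 83.5, 76.7 and 80.3 CPM, the interval was wider, from -0.08 to 0.41. No interval of the 10 reached the fold limit of 0.5.

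These values rest on 3 mice a group, and single mice moved them. Without SCI mouse 1, Gjb6 and Fgfr3 had an adjusted p under 0.05 and a log2 fold change of 0.25 and 0.28, and still 0 of 10 genes were called. Without SCI mouse 3, the lowest of its group in most of the genes, the log2 fold changes were 0.16 for Slc1a2, 0.10 for Fgfr3, 0.06 for Gjb6 and -0.01 for Slc7a10. Neuron markers moved in this comparison. Their summed level was between 2254 and 2619 CPM in SCI+FIPI mice, above the 1398 to 1896 CPM of SCI mice. Of the 10 neuron markers 6 rose, where 3.06% of all genes were called. The microglia and macrophage sum was between 4155 and 5377 CPM, below the SCI mice, with 0 of 8 genes called. Some neurons also hold Slc1a2 transcript, and the part of neurons in its level was not tested. The Slc1a3 to Slc1a2 ratio from FPKM was 0.128, 0.125 and 0.133 in the SCI+FIPI mice. This was lower than in every SCI mouse, by 0.19 on the log2 scale, and higher than in every Sham mouse (exact two-sided permutation p = 0.1 for each). The Gja1 to Gjb6 ratio was 1.71, 1.48 and 1.49, which overlapped with the SCI mice (log2 difference -0.17, exact permutation p = 0.4). This difference was -0.29 without SCI mouse 1 and -0.07 without SCI mouse 2.

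The third comparison set the treated injured cord against the Sham cord. It shares the Sham mice with the first comparison and the SCI+FIPI mice with the second, so its values are given side by side with theirs and are not a further support for them. In SCI+FIPI mice, 4 of 10 genes were called against Sham, with 38.1% of all genes called, and 8 of 10 passed the adjusted p alone, with 59.1% of all genes. Aqp4 rose 1.49-fold (log2 0.57, beside 0.60 in the SCI group) and Sox9 rose 1.48-fold (log2 0.57, beside 0.40). Slc1a2 fell to 0.669 of the Sham level (log2 -0.58, beside -0.82) and Slc7a10 to 0.530 (log2 -0.92, beside -1.02). The edgeR adjusted p-values were 3.54e-05, 0.00101, 1.13e-05 and 2.47e-05. Aldh1l1 (log2 0.37), Fgfr3 (-0.40), Gjb6 (-0.32) and Glul (-0.28) passed the adjusted p and not the fold limit. Gja1 (0.13) and Slc1a3 (0.04) passed neither. Sox9 was 0.46 and not called without Sham mouse 3. The adjusted p of Glul was not under 0.05 without Sham mouse 1, Sham mouse 2 or SCI+FIPI mouse 1 (0.0552, 0.0557 and 0.0713 in edgeR). With offsets for GC content and length, which shift the median of all genes to -0.14, Slc1a2 was at -0.41 and Sox9 at 0.41 and neither was called, while Gjb6 at -0.56 and Fgfr3 at -0.61 were, and Aldh1l1 was at 0.09 (edgeR adjusted p = 0.252). In that fit 3157 of 7413 called genes were higher, against 3957 of 7128 without the offsets.

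Around the 10 genes, 8 lists hold 102 tested genes of the same pathways. In SCI against Sham, 37 of them rose and 26 fell. The counts of the lists are to be read beside the 47.0% of all genes called in this comparison, and those of the endfoot, ion transport, transcription factor and astrocyte-enriched lists were near or below it. Beside Aqp4, the list of genes that anchor it at the endfoot had 2 higher and 2 lower of 10, with a median log2 fold change of -0.04. Dag1, the dystroglycan that binds laminin of the vessel wall, rose by a log2 fold change of 0.84 (SE 0.0629, edgeR adjusted p = 2.27e-08). The dystrobrevin Dtnb had the deepest fall, by 0.56 on the log2 scale (edgeR adjusted p = 0.000202). The anchoring genes thus went in both directions beside the rise of Aqp4.

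Of 8 ion transport genes of astrocytes, 4 fell and 0 rose. The estimates of the other 4, which were not called, were also below 0, with a list median of -0.49 beside -0.00 for all genes. Kcnk1, a potassium leak channel, fell furthest, from between 73.2 and 73.7 CPM to between 30.3 and 40.2 CPM (log2 -1.03, edgeR adjusted p = 6.84e-08). Kcnj10, the inward rectifier Kir4.1 that clears potassium, was at 960.2 to 1096 CPM in Sham mice and 756.5 to 944 CPM in SCI mice, a log2 fold change of -0.28 (edgeR adjusted p = 0.00735) that was not called.

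Amino acid transporters and enzymes of the glutamate and glutamine cycle had 6 higher and 6 lower of 17, with a median of -0.15. The largest rise was that of Slc6a13, a GABA and taurine carrier known from the meninges, with a log2 fold change of 1.47 (edgeR adjusted p = 0.00966). The deepest fall was that of Slc1a6, the glutamate transporter of Purkinje neurons, at -1.72 (edgeR adjusted p = 3.06e-08) and 3.88 to 4.61 CPM in SCI mice. Slc38a3, the SN1 carrier by which astrocytes release the glutamine made by Glul, had a log2 fold change of -0.15 (edgeR adjusted p = 0.0504) and was not called.

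Of the other connexins and pannexins, 7 rose and 3 fell of 12 tested, with a median of 0.94, in contrast to Gja1 and Gjb6, of which neither was called. Gjb2, connexin 26, known from meninges as well as astrocytes, rose by a log2 fold change of 1.15 (edgeR adjusted p = 0.0254). Gjd2, connexin 36 of neurons, fell by 2.01 on the log2 scale (edgeR adjusted p = 6.5e-09). The list holds connexins of vessels, meninges, neurons and oligodendrocytes besides those of astrocytes.

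Of 11 other transcription factors of astrocytes, 2 rose and 1 fell, with a median of 0.13. Id3, an inhibitor of differentiation induced by BMP, had the largest rise, from between 47.5 and 53.2 CPM to between 156.9 and 185 CPM (log2 1.73, edgeR adjusted p = 1.11e-10). Hes5, a Notch target, was called lower at levels under 1 CPM in every mouse. Sox2, which acts beside Sox9 in glia, had a log2 fold change of 0.42 (edgeR adjusted p = 0.00135), not called. Of 8 other FGF receptors and ligands, 3 rose and 4 fell, with a median of -0.19. Fgfr4 rose by a log2 fold change of 1.13 (edgeR adjusted p = 0.00391) at 2.56 to 3.71 CPM in SCI mice, and Fgf9, a ligand of Fgfr3 made by neurons, fell from between 38.7 and 40.2 CPM to between 8.94 and 13.8 CPM (log2 -1.83, edgeR adjusted p = 1.43e-08). Fgfr1 was at 0.21 and not called.

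Of 23 other astrocyte-enriched genes, 5 rose and 6 fell, with a median of -0.09. Mfge8, a bridge for the uptake of dying cells that macrophages make too, had the largest rise with a log2 fold change of 2.57 (edgeR adjusted p = 2.31e-09), and the glypican Gpc5 fell by 1.65 (edgeR adjusted p = 1.72e-05). The list of 13 reactive astrocyte genes is named for the response to injury and was chosen with earlier results of these data known. In that list 12 rose and 0 fell, with a median of 1.76, which is a description and not a test. Gfap rose from between 3913 and 4453 CPM to between 8818 and 10023 CPM (log2 1.22, edgeR adjusted p = 6.83e-09), and Timp1, an inhibitor of metalloproteases, had the largest rise at 2.78 (edgeR adjusted p = 1.83e-05). Vim, Cd44 and Timp1 are also made by macrophages or fibroblasts, whose markers rose in the same mice, and the part of those cells in these values was not tested.

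**Figure D5:**
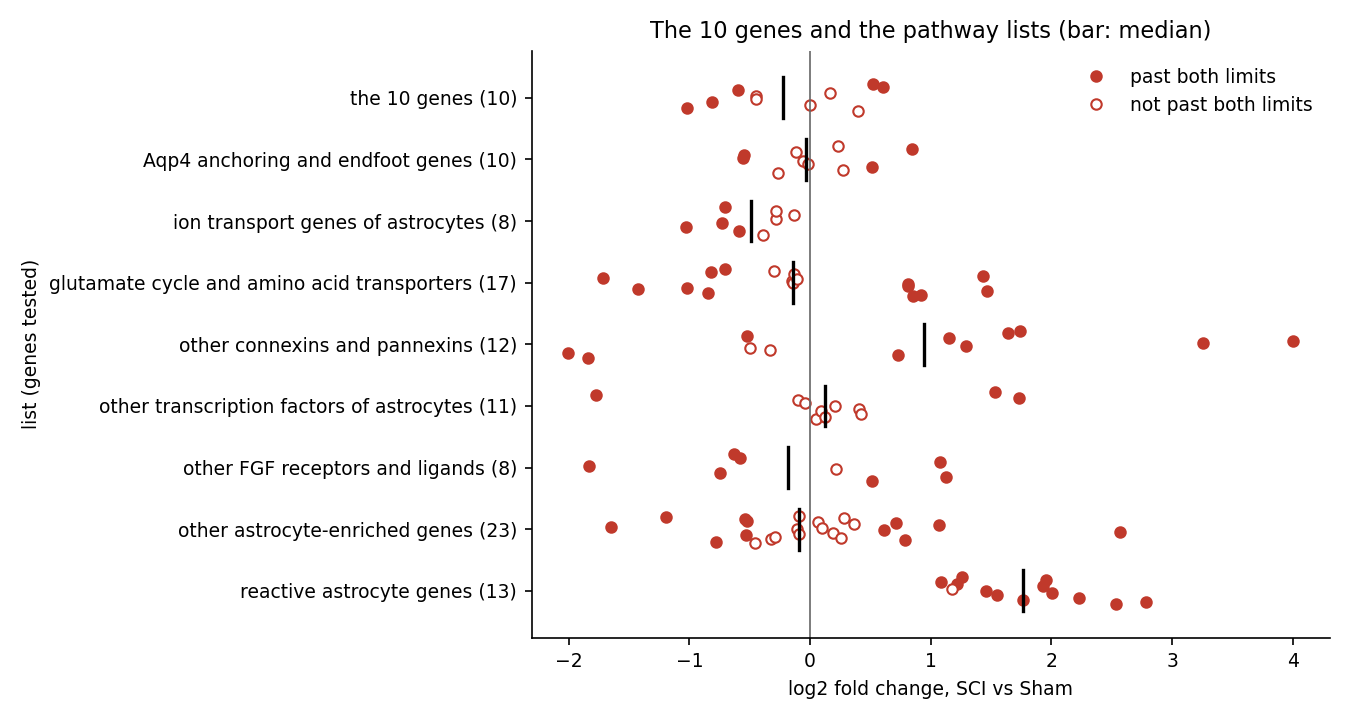
Log2 fold change of SCI against Sham for the 10 genes and each tested gene of the 8 pathway lists, a row of points per list, with filled points for genes past both limits in edgeR and a bar at each median. All 8 ion transport genes lie below 0, all 13 reactive genes lie above 0, and the other lists spread to both sides. The lists were chosen with earlier results of these data known.

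In SCI+FIPI against SCI, 4 of these 102 genes were called, near the share of 3.06% over all genes. All 4 rose, and of the 572 genes called among all genes tested, 442 were higher. The 4 were Slc1a6 (log2 0.72, edgeR adjusted p = 0.0075), Gjd2 (0.67, 0.0102), Panx2 (0.59, 0.0215) and Fgf9 (0.51, 0.0254). Each had fallen in SCI against Sham, which shares the SCI mice with this comparison. Their levels in SCI+FIPI mice, for Panx2 between 78.3 and 90.3 CPM, stayed below the 181.6 to 220.7 CPM of Sham mice, and the same held for the other 3. These genes are known mainly from neurons, and the neuron marker sum was higher in these mice, as given above. The part of neurons in the levels of these 4 genes was not tested. No ion transport gene of 8 and no reactive gene of 13 was called, and in the latter list 11 of 13 estimates were below 0, with a median of -0.22. Gfap was between 8476 and 9086 CPM in SCI+FIPI mice, a log2 fold change of -0.12 (edgeR adjusted p = 0.398).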

How the data were processed

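RNA of 9 mouse spinal cords was sequenced (3 Sham, 3 SCI and 3 SCI+FIPI). The authors removed adapter and low-quality sequence, counted reads per gene and deposited raw counts, which are not normalized. The submitters' processing notes name GRCm38 and R 4.2.3. The aligner, the counting program and its strand setting are not given in the sources used here. Identifiers were matched to GENCODE M21 (52403 of 52550). The 10 genes and the other gene lists were chosen with earlier results of these data known.

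Counts were scaled by TMM, filtered by filterByExpr (18699 genes left) and fitted for all 9 mice with edgeR 4.0.16 in R 4.3.3 (robust quasi-likelihood, 6 residual degrees of freedom, biological coefficient of variation 9.3%). The limits on fold and adjusted p are those of the study's methods. Ratios were compared by exact permutation of log2 CPM ratios (prior count 2). Mice of a group differed by more than sampling noise (chi-square per gene 6.76 to 13.2). All 10 genes were named. From each other list, the rule named the largest rise and fall called in SCI against Sham, stated partners of the 10 genes, and all genes called in SCI+FIPI against SCI. Some genes that this rule names are not reported here. Genes of like pattern were the 3 with the smallest root mean square difference.

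Alternatives were RLE and upper-quartile factors, other count filters, a replicate block, fits to the 2 groups compared, DESeq2 1.42.0, limma-voom (limma 3.58.1), offsets for GC content and length, fits without hemoglobin, mitochondrial and Y-linked genes, no fold limit, a prior count of 0.5, and each mouse left out. The steps were tested on simulated data.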

Additional observations from a re-analysis of the deposited data

How the results depend on the processing

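Without the limit on the fold change, 9 of the 10 genes passed in SCI against Sham and 8 in SCI+FIPI against Sham. All genes called became 12315, 1800 and 11060 in SCI against Sham, SCI+FIPI against SCI and SCI+FIPI against Sham. With each mouse left out in turn, the genes called of the 10 were between 4 and 7 in SCI against Sham, between 3 and 4 in SCI+FIPI against Sham and 0 throughout in SCI+FIPI against SCI. In the same fits 8373 to 8851 of all genes were called in SCI against Sham and 6675 to 7186 in SCI+FIPI against Sham. Between 19061 and 19129 genes were tested in each fit. All genes called in SCI+FIPI against SCI were 189 when mouse 2 of SCI+FIPI was left out and 1038, 341 and 240 when mouse 1, 2 or 3 of SCI was, beside 572 with all mice. The cause was not tested. Over the single genes and 20 alternatives, 184 of 200 fits in SCI against Sham, 200 of 200 in SCI+FIPI against SCI and 191 of 200 in SCI+FIPI against Sham kept their side of both limits, and none reversed a called direction. Upper-quartile factors and offsets for GC content and length each took Aldh1l1 below the fold limit and Glul and Gjb6 past it in SCI against Sham. The offsets moved the median of all genes to -0.12 there, and Glul and Gjb6 were at -0.63 and -0.67. The differences in ratio kept their direction in every alternative.

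Same-numbered mice of different groups are different animals. The correlation of their deviations was between -0.07 and 0.11 over 9 pairs, and between -0.11 and 0.09 over the other 18. With 3 mice a group, these values cannot tell whether same-numbered mice shared a day of surgery or of library making. With the replicate number as a block, 5, 0 and 4 of the 10 genes were called in the 3 comparisons, as without it, and 8744, 555 and 7115 of all genes. The adjusted p of Gja1 in SCI against Sham became 0.0609.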

Other observations

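The genes whose pattern over the 9 mice was most like that of each of the 10 genes were sought among 14553 genes whose log2 CPM averaged 1 or more, by the root mean square difference of centred log2 CPM. Every difference given here was under 0.1, and these genes are a description only. For Slc1a2 the nearest were Cstf2, Itfg1 and Asphd2, with a difference of 0.03 for Cstf2. For Slc1a3 they were Prpf31, Vps8 and Mlc1, the last of which encodes an astrocyte membrane protein of the endfoot and differed by 0.04. Wasf3, Lmtk2 and Sod2 were nearest to Slc7a10, and Smpdl3b, B3glct and Tmem38b to Aqp4. Cacna1h, Coil and Fam92a were nearest to Glul, and Rnf19b, Fuz and Spata13 to Aldh1l1. Gja1 was followed most closely by Rexo2, Tgs1 and Rsl1d1, and Gjb6 by Fam213a, Dap3 and Eid2. Fgfr3 had Tnik, Snn and Mrs2 nearest. Sox9 had no gene closer than Nhej1, at 0.07, followed by Ahnak2 and Sat2. None of the 10 genes was among the nearest 3 of another.

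Among the amino acid carriers that the naming rule left out, and chosen after its values were seen, was Slc6a11 (GAT-3), a GABA transporter of astrocytes. It was between 547 and 619.5 CPM in Sham mice and between 175 and 239 CPM in SCI mice (log2 -1.42, edgeR adjusted p = 5.28e-07). In SCI+FIPI mice it was between 269.7 and 328.5 CPM, above every SCI mouse and below every Sham mouse. Against the SCI group the log2 fold change was 0.48 (edgeR adjusted p = 0.0258), inside the fold limit.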
